A study of Bos taurus and Bos grunniens and Bubalus bubalis with 15 samples.

Results

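The 8 genes described here encode enzymes of mitochondrial fatty acid oxidation: CPT1B, CPT2, ACADVL, ACADL, ACADM, HADHA, HADHB and ACAA2. Their probe sets were found by gene symbol in the platform annotation, which names 9155 genes by a single symbol, and they gave 9 probe sets of 24016 that are not controls. ACADL has 2 and each other gene has 1. All 15 animals contributed 1 longissimus dorsi (back muscle) sample at 36 months of age, read on 1 bovine array each. There were 5 groups of 3: intact males, castrated males and females of Qinchuan cattle, a Chinese beef breed, then Qinghai yak and Guangxi water buffalo. The cattle were of similar genetic background, shared their rearing conditions and had birth dates inside a 30-day window, and no source used here states when the males were castrated. The labels state no sex for yak or buffalo, so species and sex cannot be told apart in that comparison.

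Fatty acids are burned in mitochondria by shortening their chains in repeated rounds. CPT1B, on the outer membrane of muscle mitochondria, hands the long-chain acyl group to carnitine, and CPT2, on the inner membrane, hands it back to coenzyme A. In each round an acyl-CoA dehydrogenase removes hydrogen: ACADVL acts on very long, ACADL on long and ACADM on medium chains. HADHA and HADHB are the subunits of the trifunctional protein, which carries out the later steps on long chains. ACAA2 is a thiolase that cuts off acetyl-CoA. In skeletal muscle the pathway is a main source of energy at rest and is known to be more active in slow, oxidative fibres.

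Values are hybridisation intensities on a linear scale, with no read depth. The number of arrays limits the precision. Group values are means ± SD with n = 3 arrays. Differences are log2 fold changes on intensities with 16 added, with their SE and the adjusted p of limma, a linear model fitted across the 14409 probe sets bright enough to test. A probe set was called where adjusted p was under 0.05. Array medians lay between 6.71 and 6.81 on that log2 scale, and mean intensities between 304 and 364. Of 12 muscle markers 10 had probe sets, among them ACTA1, CKM and DES, and all 10 passed the filter on dim probe sets. Since 14409 of 24016 probe sets passed that filter, this does not test the tissue label. Intact male 1 stood apart from the other cattle arrays, with the highest 3' to 5' signal ratios of the cattle (1.48 for actin and 1.34 for GAPDH) and the highest macrophage markers. In bulk muscle, fewer cells of a type and less RNA per cell cannot be told apart. The probes hold cattle sequence, so in yak and buffalo a different transcript level and a different binding to the probe cannot be told apart.

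**Figure D1:**
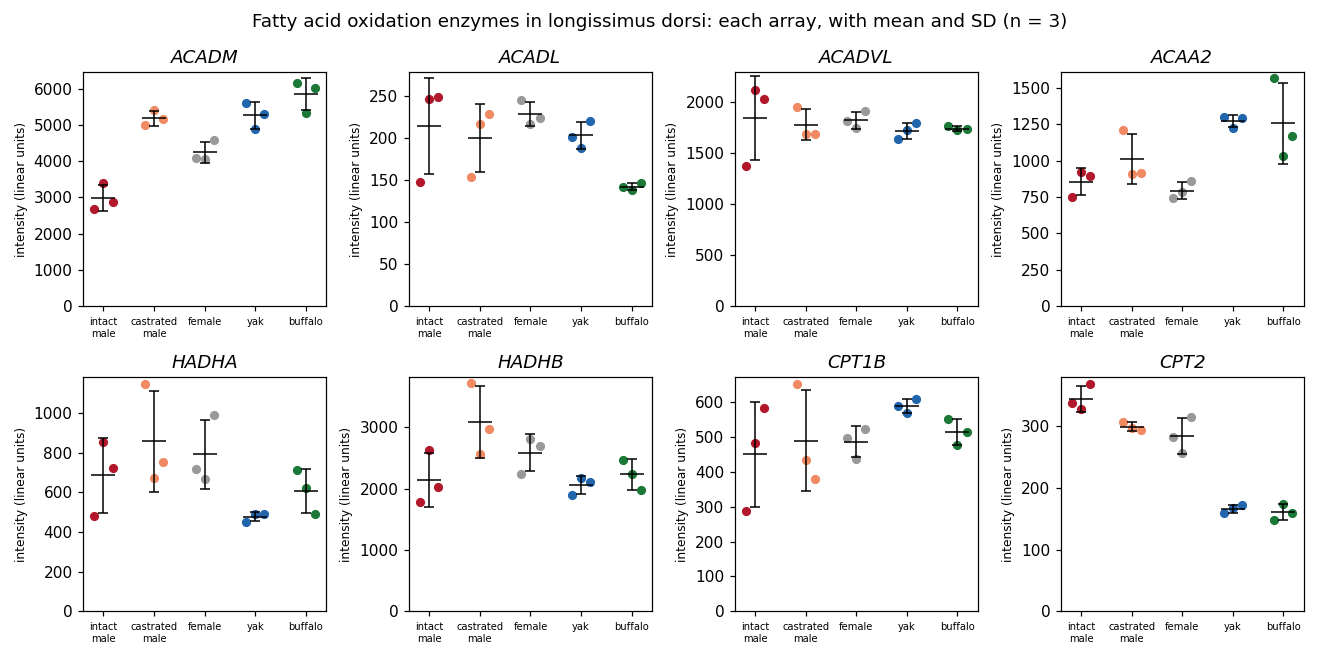
Intensity (linear units, axis from 0) of the 8 enzymes on each of 15 arrays, in panels by gene, with points in replicate order and bars for the mean and SD of 3 arrays. ACADM is lowest in the 3 intact males, and CPT2 is lower on every yak and buffalo array than on every cattle array.

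ACADM was the only enzyme called between cattle groups, in both comparisons with intact males. Its intensity was 2692, 3384 and 2882 for the intact males, 4091, 4067 and 4571 in females, and 4988, 5395 and 5155 in castrated males. Intact males were the lowest and castrated males the highest of the cattle, and no pair of these groups overlapped. Of all probe sets tested, 24.8% also had no overlap between castrated and intact males. For females the share was 33.1% against intact and 17.5% against castrated males. The means were 2986 ± 358, 4243 ± 284 and 5179 ± 205. Castrated males exceeded intact males 1.74-fold (log2 fold change 0.80, SE 0.11, adjusted p = 0.0150), and females exceeded intact males 1.42-fold (log2 fold change 0.51, SE 0.11, adjusted p = 0.0373). Between females and castrated males the log2 fold change was -0.29 (SE 0.11, 95% interval -0.54 to -0.04), with an adjusted p of 0.625 and an unadjusted p of 0.0294 in the same limma fit. In order of mean, intact males and females were followed by castrated males, yak (5265 ± 370) and buffalo (5836 ± 441), and the ranges of the last 3 overlapped.

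The ACADM calls among cattle did not hold without every array. For castrated against intact males the adjusted p was 0.0553, 0.0722 and 0.0628 without castrated males 1, 2 and 3, at log2 fold changes of 0.82, 0.77 and 0.80. Without intact male 1 it was 0.0179, at 0.73. For females against intact males the call held without intact male 3 (0.0378) but was lost without any other array: the adjusted p was 0.0592 and 0.0610 without intact males 1 and 2, 0.0561, 0.0643 and 0.0613 without castrated males 1 to 3, and 0.0823, 0.0977 and 0.128 without females 1 to 3. Leaving out intact male 1 moved that log2 fold change to 0.44.

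Neither of the dehydrogenases for longer chains was called among cattle. ACADVL stood at 1370, 2117 and 2030 for intact, 1947, 1687 and 1687 for castrated males, and 1807, 1739 and 1909 for females. Intact male 1 was the lowest and intact male 2 the highest of all 15 arrays, so the intact males spanned the other groups. The log2 fold change was -0.03 (95% interval -0.42 to 0.36) for castrated and 0.01 (-0.38 to 0.40) for female against intact males. Neither passed. ACADL measured 148, 247 and 249 for intact, 154, 217 and 229 for castrated males, and 245, 217 and 224 for females. Replicate 1 was low in both male groups and the 3 groups overlapped, with log2 fold changes of -0.08 (-0.55 to 0.39) and 0.12 (-0.35 to 0.59) against intact males. The other ACADL probe set was too dim to test, at 29.9 to 79.3 over the 15 arrays. It was 33.9 on intact male 1 against 74.8 and 65.2 on intact males 2 and 3, too dim to bear on the tested probe set.

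The trifunctional protein subunits had their extremes on the same cattle arrays. HADHA was 480, 852 and 724 for intact, 1147, 670 and 755 for castrated males, and 719, 666 and 989 for females. HADHB was 1783, 2632 and 2021 for intact, 3713, 2568 and 2974 for castrated males, and 2238, 2804 and 2697 for females. Castrated male 1 was the highest and intact male 1 the lowest of the cattle for both subunits, and every cattle group overlapped another. HADHA and HADHB lie next to each other in the RefSeq gene table of cattle. For castrated against intact males HADHB had a log2 fold change of 0.52 (SE 0.19, 95% interval 0.10 to 0.95), with an unadjusted p of 0.0205 in limma but an adjusted p of 0.170. HADHA had 0.32 (SE 0.27, interval -0.29 to 0.93, adjusted p = 0.538). For females against intact males the values were 0.28 (-0.15 to 0.70) and 0.22 (-0.39 to 0.83), and neither passed.

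The thiolase and the carnitine transferases gave no call among cattle. ACAA2 was 750, 924 and 896 for intact, 1210, 906 and 917 for castrated males, and 741, 782 and 858 for females. All females lay below all castrated males, at a log2 fold change of -0.33 (95% interval -0.69 to 0.03, adjusted p = 0.680 in limma). CPT1B ranged from 287 (intact male 1) to 652 (castrated male 1) and its 3 cattle groups overlapped, at means of 449.98 ± 149.8 (intact), 488 ± 145 (castrated) and 485 ± 43.6 (female). Its log2 fold change against intact males was 0.13 (-0.48 to 0.74) for castrated and 0.16 (-0.45 to 0.77) for female cattle. CPT2 was 337, 328 and 368 for intact, 306, 296 and 293 for castrated males, and 281, 256 and 315 for females. Intact males were the highest here, above every castrated male and every female, by log2 fold changes of -0.19 (-0.46 to 0.08, adjusted p = 0.388) and -0.27 (-0.53 to 0.003, adjusted p = 0.186) for the other groups. ACADM was thus lowest and CPT2 highest in the same 3 animals, though only ACADM passed.

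Counted over the genes, 1 of 8 was higher and 0 lower in castrated than in intact males, where 1.46% of all probe sets tested were called. The same count was 1 and 0 for females against intact males, where 5.50% were called. It was 0 of 8 for females against castrated males, where 0.0208% were called and 1 enzyme, ACADM, had an unadjusted p under 0.05 in limma. The median log2 fold change of the 8 genes was 0.18, 0.14 and -0.08 in these comparisons, beside 0.00, 0.01 and 0.00 over all probe sets tested. The groups' values did not overlap for 2 of 8 genes in each comparison, beside 24.8%, 33.1% and 17.5% of all probe sets tested. Both contrasts against intact males use the same 3 intact male arrays.

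**Figure D2:**
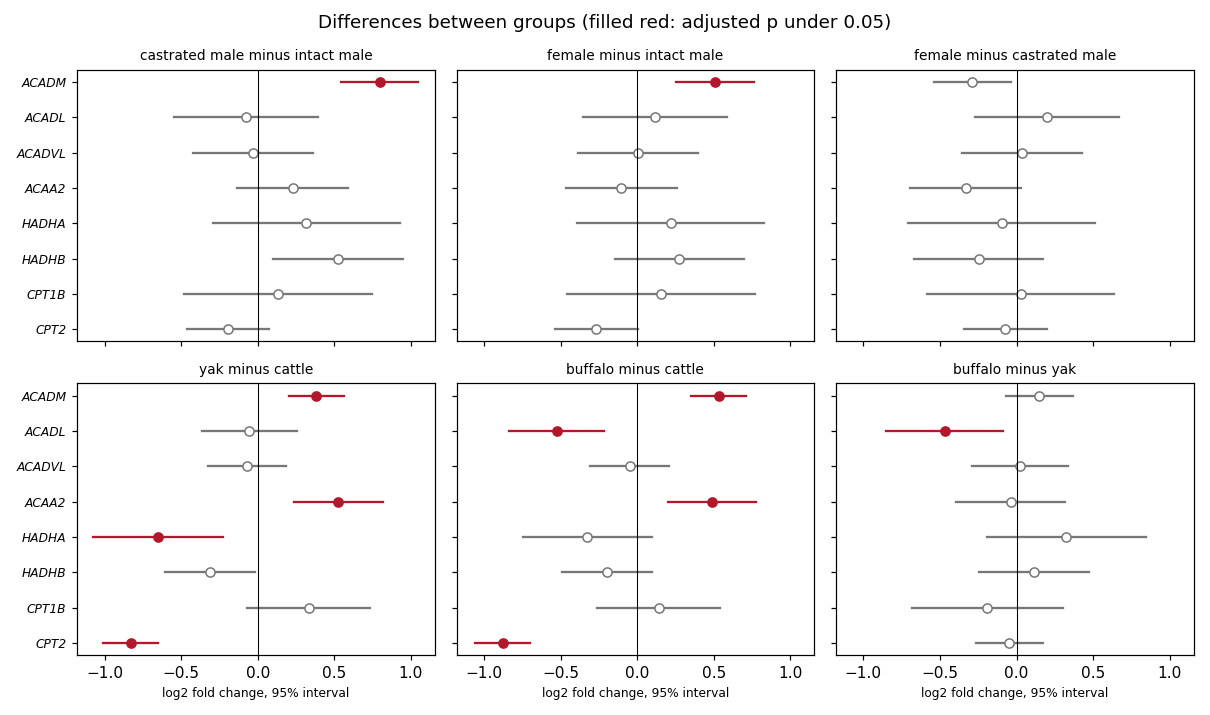
Log2 fold change (horizontal axis) of each enzyme (rows) in 6 comparisons (panels), with 95% intervals as lines and filled red points where adjusted p was under 0.05. Among cattle only ACADM is filled, at 0.80 and 0.51 against intact males. In yak and buffalo CPT2 lies farthest left, at -0.83 and -0.88.

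The intact males varied most, and 1 animal was often the lowest. Of the 8 enzymes, 6 had their largest SD on the log2 scale in intact males, and intact male 1 held the lowest cattle value for 6. The mean log2 deviation of the 8 enzymes from their 15-array means was -0.38 on that array, against 0.12 and 0.05 in intact males 2 and 3. The highest was 0.29, on castrated male 1, the cattle array with the highest value for 4 enzymes. The remaining 11 arrays lay between -0.12 and 0.16. Without intact male 1, the log2 fold change of castrated against intact males was 0.40 for HADHB (adjusted p = 0.340), 0.09 for HADHA, -0.31 for ACADL and -0.23 for ACADVL, none of which passed in limma.

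Markers of some other cells also differed among the cattle arrays. In intact males 1, 2 and 3 the summed intensity of 9 macrophage markers of 11 listed was 24935, 5847 and 3398, against 563 to 863 in females and 904 to 1285 in castrated animals. That of 9 fibroblast and matrix markers of 11 was 11559 to 12698 in castrated animals, 8875 to 10839 in females and 32862 to 46667 in intact males. The sum over 10 muscle fibre markers of 12 was 101170, 121272 and 116427 in intact males, and 114119 to 125570 over the other cattle. For 7 adipocyte markers of 9 the sums ran from 2269 to 4001 for castrated males, 2255 to 5851 for females and 1866 to 6795 for intact males. For 8 endothelial markers of 9 they ran from 1795 to 2610, 2088 to 2926 and 1591 to 2664 in the same order. No macrophage, matrix or adipocyte marker with a probe set fell below the filter, while the endothelial genes KDR and VWF did. The part of these cells in the ACADM differences was not tested.

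**Figure D3:**
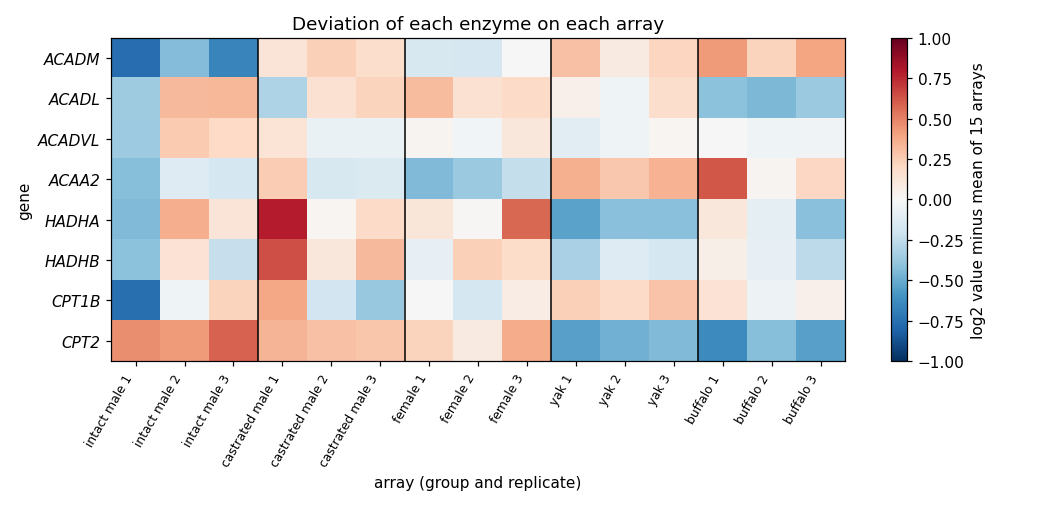
Colour gives the log2 value of each enzyme (rows) minus its mean over 15 arrays, for each array (columns, grouped by black lines), from blue (lower) to red (higher). Intact male 1 is blue for 7 enzymes and red for CPT2, and CPT2 is blue on all yak and buffalo arrays.

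Yak and buffalo were set against cattle to compare the species, each cattle group having equal weight. CPT2 was the enzyme with the largest difference. It was 159, 167 and 172 in yak and 148, 174 and 159 in buffalo, while the 9 cattle arrays ran from 256 to 368. All 6 arrays of the other species lay below all cattle arrays. The log2 fold change was -0.83 (SE 0.08, adjusted p = 2.20e-05) in yak and -0.88 (SE 0.08, adjusted p = 2.19e-06) in buffalo. Both calls held in each of 24 alternative settings, including each array left out in turn, with values of -0.89 to -0.69 and -0.94 to -0.73. Between buffalo and yak it was -0.05 (95% interval -0.27 to 0.17). CPT2 has 1 probe set here, so no other probe set could be compared with it.

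CPT1B, the partner of CPT2 on the outer membrane, did not go the same way. It was 588, 568 and 607 in yak and 550, 477 and 513 in buffalo, inside the cattle range. Its log2 fold change was 0.33 (95% interval -0.07 to 0.73, adjusted p = 0.198) in yak and 0.14 (-0.26 to 0.54, adjusted p = 0.547) in buffalo. Every yak lay above every buffalo, at a difference of -0.19 (-0.68 to 0.30) for buffalo minus yak that did not pass. Between these species 55.2% of all probe sets tested had no overlap.

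ACADM was higher in both species than the cattle mean. Yak measured 5610, 4875 and 5311 and buffalo 6159, 5334 and 6016. Yak overlapped the castrated males, whereas 2 buffalo lay above every cattle array and buffalo 2 lay below castrated male 2. The log2 fold change was 0.38 (SE 0.08, adjusted p = 0.00418) in yak and 0.53 (SE 0.08, adjusted p = 0.000146) in buffalo. The yak value rested on the intact males: with castrated males and females as the cattle reference it was 0.17 (adjusted p = 0.119), while that of buffalo was 0.31 (adjusted p = 0.00403). Buffalo minus yak was 0.15 (95% interval -0.07 to 0.37) and did not pass.

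ACADL set the buffalo apart from the other groups. It was 142, 138 and 146 in buffalo, below all cattle (148 to 249) and all yak (201, 188 and 221). Its log2 fold change was -0.52 (SE 0.14, adjusted p = 0.00806) against cattle and -0.47 (SE 0.18, adjusted p = 0.0464) against yak, and -0.05 (95% interval -0.37 to 0.26) for yak against cattle. The untested ACADL probe set averaged 33.7 ± 3.53 in buffalo, 46.6 ± 5.09 in yak and 57.9 to 69.0 over the cattle groups, and was too dim to bear on the tested one. The call against cattle held in all 24 settings. The call against yak was lost without any yak or buffalo array (adjusted p from 0.0673 to 0.126), without any female (0.0544 to 0.0582) and without castrated male 2 (0.0543). ACADVL, the very long chain enzyme, was 1631, 1719 and 1792 in yak and 1763, 1719 and 1729 in buffalo. These lay inside the cattle range, with log2 fold changes of -0.07 (-0.32 to 0.19) and -0.05 (-0.30 to 0.21).

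HADHA was lower in yak, HADHB was not called in either species, and the thiolase was higher in both. HADHA was 451, 490 and 490 in yak, all below the cattle arrays but intact male 1 (480), with a log2 fold change of -0.65 (SE 0.20, adjusted p = 0.0245). That call was lost without yak 1, 2 or 3 (adjusted p = 0.101, 0.0738 and 0.0606), at values of -0.61 to -0.67. In buffalo HADHA was 713, 620 and 491, inside the cattle range, at -0.33 (95% interval -0.75 to 0.10). HADHB was 1891, 2171 and 2103 in yak, at -0.31 (SE 0.14, adjusted p = 0.101), and 2470, 2242 and 1977 in buffalo, at -0.20 (SE 0.14, adjusted p = 0.239). Neither HADHB value passed, but both did with intact males left out (-0.44, adjusted p = 0.0236, and -0.33, adjusted p = 0.0453). ACAA2 was 1303, 1223 and 1292 in yak, above every cattle array (741 to 1210), and 1570, 1031 and 1172 in buffalo, where 1 array stood far above the others. Its log2 fold change was 0.53 (SE 0.13, adjusted p = 0.0106) in yak and 0.49 (SE 0.13, adjusted p = 0.00806) in buffalo. The yak call was lost without yak 1 (0.51, adjusted p = 0.0528) and the buffalo call without buffalo 1 (0.32, adjusted p = 0.0677).

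Over the genes, 2 of 8 were higher and 2 lower in yak than in cattle, where 29.1% of all probe sets tested were called. In buffalo 2 were higher and 2 lower, where 51.4% were called, and against yak 0 were higher and 1 lower in buffalo, where 42.2% were called. The buffalo count is near that background, and the yak count, over 8 genes, was not tested against it. Of all probe sets called in buffalo, 44.8% were higher than in cattle, and 55.8% after quantile normalisation. The yak and buffalo comparisons use the same 9 cattle arrays, so their shared calls for ACADM, ACAA2 and CPT2 are not independent. The members' median log2 fold change was -0.06 in yak and -0.12 in buffalo, beside -0.02 and -0.03 over all probe sets tested. Of 8 genes, 2 had no overlap with cattle in yak and 2 in buffalo, beside 19.3% and 32.0% of all probe sets tested. Between buffalo and yak 3 of 8 had no overlap, beside 55.2%.

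Other enzymes of mitochondrial beta-oxidation were read from a list of 20 genes, of which 18 had a probe set bright enough to test. In castrated against intact males 0 of 18 passed in limma, with 4 at an unadjusted p under 0.05, and for females 0 passed with 1. Their median log2 fold change was 0.24 and 0.28. For females against castrated males 0 passed and 0 had an unadjusted p under 0.05, with a median of -0.05. In yak 2 of 18 were higher and 6 lower than in cattle, where 29.1% of all probe sets tested were called. ECI2, an isomerase for unsaturated chains, rose from 367 to 544 in the cattle group means to 1160 ± 137 (log2 fold change 1.38, SE 0.19, adjusted p = 0.000197), and DECR1, the reductase for unsaturated chains, differed by 0.85 (SE 0.14). CRAT, which moves short acyl groups to carnitine, was lower at -1.18 (SE 0.17), and ACAT1, an acetoacetyl-CoA thiolase, at -0.99 (SE 0.18).

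In buffalo 1 of these 18 was higher and 4 lower than in cattle, where 51.4% of all probe sets tested were called. CRAT averaged 340.5 ± 15.4 against 1109 to 1319 in the cattle groups (log2 fold change -1.73, SE 0.17, adjusted p = 2.62e-06). ACOT2, a thioesterase that frees fatty acids from coenzyme A, was lower at -1.26 (SE 0.24), and MLYCD, which breaks down malonyl-CoA, at -1.20 (SE 0.25). ECI1, the partner isomerase of ECI2, was lower at -0.49 (SE 0.08). Between buffalo and yak 2 were higher in buffalo and 4 lower, where 42.2% of all probe sets tested were called. ECI2 was at -1.70 (SE 0.23), ACAT1 at 1.16 (SE 0.22), the hydroxyacyl-CoA dehydrogenase HADH at -0.64 (SE 0.18) and the acyl-CoA synthetase ACSL1 at 0.86 (SE 0.26). HADH lost its call after quantile normalisation (-0.37, adjusted p = 0.144). ACSL1 lost its call without yak 1, buffalo 2 or buffalo 3.

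Peroxisomes shorten very long chains by a related route, and 7 of 10 peroxisomal genes could be tested. None passed in either comparison with intact males or between females and castrated males, with 2, 2 and 1 at an unadjusted p under 0.05 in limma. In yak 1 was higher and 3 lower, where 29.1% of all probe sets tested were called. They were ACOX3, an acyl-CoA oxidase, at 1.47 (SE 0.23), ACAA1, the peroxisomal thiolase, at -0.80 (SE 0.10), the multifunctional enzyme HSD17B4 at -0.57 (SE 0.12) and the transporter ABCD3 at -0.52 (SE 0.11). In buffalo 0 were higher and 3 lower, where 51.4% of all probe sets tested were called. ACAA1 was at -1.35 (SE 0.10), ACOX2 at -1.64 (SE 0.43) and SCP2, a lipid carrier with thiolase activity, at -0.47 (SE 0.08). SCP2 lost its call after quantile normalisation (-0.17, adjusted p = 0.143). The mitochondrial thiolase ACAA2 was called higher and the peroxisomal ACAA1 lower in both species, each by its own test against the same cattle arrays. The ACAA2 calls were lost without yak 1 and without buffalo 1, and ACAT1, another mitochondrial thiolase, was lower in yak. Between buffalo and yak 2 were higher in buffalo and 4 lower, where 42.2% of all probe sets tested were called. HSD17B4 was at 0.75 (SE 0.15) and ACAA1 at -0.55 (SE 0.12).

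Regulators of the pathway and targets of PPAR receptors, which switch on fat burning, made a list of 18 with 14 tested. ACACB, the carboxylase whose product malonyl-CoA inhibits CPT1, was the 1 member called among cattle. It passed for castrated against intact males, where 1.46% of all probe sets tested were called. Castrated males averaged 768 ± 103, females 514 ± 124 and intact males 170.5 ± 116, at a log2 fold change of 2.29 (SE 0.43, adjusted p = 0.0411) for castrated against intact males. That call was lost with the replicate number as a block and without intact male 2, any castrated male or any female, at adjusted p up to 0.128. Between females and intact males 0 of 14 passed in limma, with 3 at an unadjusted p under 0.05, and between females and castrated males 0 with 2. In yak 1 was higher and 2 lower, where 29.1% of all probe sets tested were called. They were SIRT3, a mitochondrial deacetylase, at 0.43 (SE 0.13, lost without yak 1 or 2), FABP3, the fatty acid carrier of muscle, at -1.91 (SE 0.37), and LPL, the lipase of blood triglycerides, at -1.56 (SE 0.32).

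In buffalo 3 of these 14 were higher than in cattle and 4 lower, where 51.4% of all probe sets tested were called. ACACB, called lower, was 43.9 ± 5.24, against 692 ± 36.6 in yak. The buffalo value lies below the level of the filter on dim probe sets, which ACACB passed through the other groups, so no fold is given. PPARGC1A, a coactivator of mitochondrial genes, was 337 ± 47.8 in buffalo and 123 to 135 in the other groups' means, at 1.33 (SE 0.20, adjusted p = 0.000133) against cattle. LPL was higher at 1.34 (SE 0.32), with 3032 ± 1606 in buffalo. CD36, which takes up fatty acids, was lower at -0.55 (SE 0.15), a call lost after quantile normalisation or without buffalo 3. Between buffalo and yak 3 were higher in buffalo and 1 lower, where 42.2% of all probe sets tested were called. LPL was at 2.89 (SE 0.39) and PPARGC1A at 1.28 (SE 0.25).

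**Figure D4:**
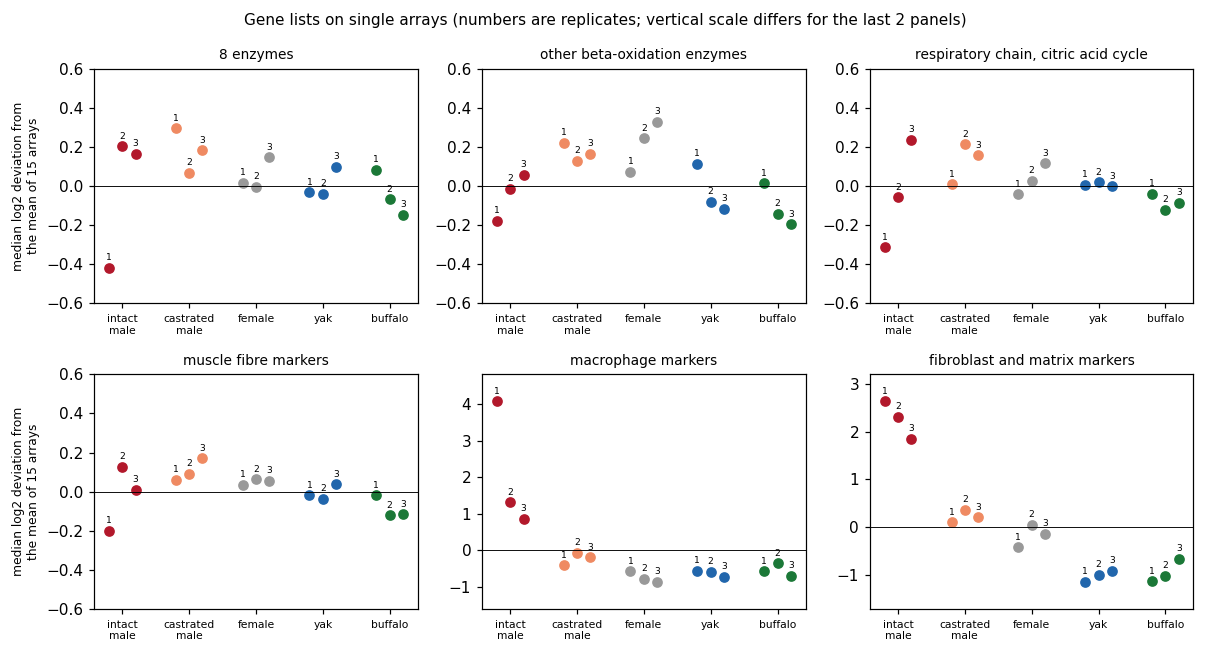
Median log2 deviation from the 15-array mean (vertical axis) of 6 gene lists (panels) on each array, with replicate numbers above the points and a wider scale in the macrophage and matrix panels. Intact male 1 is the lowest array for the 8 enzymes (-0.42), for the respiratory chain and citric acid cycle (-0.31) and for the muscle fibre markers (-0.20), and the highest for macrophage markers (4.08).

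The respiratory chain and citric acid cycle served as a reference for mitochondria as a whole, with 22 of 23 genes tested. Among cattle 0 of 22 passed in any of the 3 comparisons in limma, while 1, 2 and 0 had unadjusted p under 0.05, and the list medians were 0.15, 0.12 and -0.09, beside 0.18, 0.14 and -0.08 for the 8 enzymes. In yak 1 was higher and 2 lower, where 29.1% of all probe sets tested were called. IDH3A, a subunit of isocitrate dehydrogenase, was lower at -1.08 (SE 0.13). In buffalo 1 was higher and 4 lower, where 51.4% of all probe sets tested were called. COX4I1 of cytochrome oxidase was at -0.66 (SE 0.07), the dehydrogenase OGDH at -0.85 (SE 0.15) and the succinate dehydrogenase subunit SDHA at -0.72 (SE 0.12). The medians were -0.07 and -0.13, beside -0.06 and -0.12 for the enzymes.

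Genes of slow and fast muscle fibres were read from lists of their own. Of 8 slow fibre genes 7 were lower in yak than in cattle and 0 higher, where 29.1% of all probe sets tested were called. The 8 had a median of -0.51. Of 7 fast fibre genes 0 were higher and 0 lower in yak than in cattle, at a median of -0.06. The slow myosin light chain MYL3 led at -4.20 (SE 0.40), 369 ± 311 in yak against 4297 to 7252 in the cattle group means. The slow myosin heavy chain MYH7 was lower in yak at -0.49 (SE 0.10) and higher in buffalo at 0.56 (SE 0.10). In buffalo 4 slow genes were higher and 1, the slow light chain MYL2, lower at -0.22 (SE 0.06), and 4 of 7 fast fibre genes were lower and 0 higher, where 51.4% of all probe sets were called, with the fast fibre alpha-actinin ACTN3 at -1.37 (SE 0.14). One of the 4 fast genes, the troponin TNNC2 (-0.20, adjusted p = 0.0438 in limma), lost its call in 15 of 24 alternative settings, among them each cattle array left out but intact male 1. Among cattle 0 of 7 fast genes passed in any comparison in limma, with 0, 2 and 0 at an unadjusted p under 0.05. Of the slow genes 1 passed, TPM3, a slow tropomyosin, lower in females than in intact males at -0.997 (SE 0.22), where 5.50% of all probe sets tested were called. That call was lost with the replicate number as a block and without intact male 2, any castrated male or any female. The part of fibre type in the enzymes' values was not tested.

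Some cell type marker sums also differed between species, while others overlapped. Summed adipocyte markers were 982 to 1434 in yak and 2023 to 2163 in buffalo, against 1866 to 6795 over all cattle. Summed fibroblast and matrix markers were 4553 to 5917 in yak and 4086 to 6777 in buffalo, below the 8875 to 46667 of cattle. For macrophage markers the sums were 741 to 818 and 799 to 1143, against 563 to 24935 over cattle. Muscle fibre markers gave 101270 to 113021 and 106462 to 110275, against 101170 to 125570. Endothelial markers gave 1873 to 2410 and 1589 to 1788, against 1591 to 2926. Actin 3' to 5' ratios were 1.49 to 1.93 in yak and 1.42 to 1.73 in buffalo, against 1.17 to 1.48 in cattle. The part of the markers and of these ratios in the species differences was not tested.

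Genes on any of the lists above were left out of a search for genes most like the mean of the 8 enzymes over 15 arrays. Outside those lists the most alike were TIMP4, ALDOA, PPP1R1A, THRA and COQ10A. Their Pearson r was 0.85, 0.83, 0.82, 0.81 and 0.80, among 7018 genes compared. TIMP4 is an inhibitor of matrix proteases, ALDOA the muscle aldolase of glycolysis, PPP1R1A an inhibitor of protein phosphatase 1, THRA a thyroid hormone receptor and COQ10A a coenzyme Q binding protein. These r are a description, since the genes were picked for the highest values and the arrays share group and RNA quality. They rested in part on 1 array: without intact male 1, over 14 arrays, r was 0.75, 0.63, 0.63, 0.73 and 0.55.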

How the data were processed

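Each sample was hybridised as biotin-labelled cRNA, made from 6 µg of total RNA, to an Affymetrix bovine array, per the labels' protocols. The deposited values are intensities per probe set on a linear scale. How the authors summarised, background-corrected and normalised them is not stated in any source used here. Values were used without further normalisation: 16 was added, log2 was taken, 112 control probe sets were set aside, and only probe sets whose average exceeded the 40th percentile (6.42) were tested.

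Models were fitted across all 14409 probe sets in limma 3.58.1 (R 4.3.3), with a trend in the prior variance and Benjamini-Hochberg adjustment over each contrast (two-sided, threshold 0.05). The 9 cattle arrays gave the cattle contrasts and all 15 arrays the species contrasts. Per the labels, replicates are biological. An exact permutation test of 3 against 3 arrays has 0.1 as its smallest p. The fitting code was tested on simulated data in its main setting only, with the same spread in every group. Genes were named from the platform annotation, and 0 symbols changed against the RefSeq table (assembly ARS-UCD2.0). Other lists take each gene's brightest probe set and name up to 4 called genes per comparison. The 8 genes and the lists were chosen with earlier results of these data known. Alternatives were another added value (1 or 64), no filter, quantile normalisation, median centring, no trend, array weights, a replicate block, other arrays in the fit and each array left out. Correlations of deviations between same-numbered arrays of different groups ran from -0.33 to 0.15 over 30 pairs. Over 60 differently numbered pairs they ran from -0.22 to 0.28. With 3 arrays per group, these values cannot settle whether same-numbered arrays share a batch. No sequences are shown, as none were used here.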

Additional observations from a re-analysis of the deposited data

How the results depend on the processing

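Under settings that keep every array, the number of enzymes called stayed within 1.5 times its reported value in each of 6 comparisons, except for buffalo minus yak, where 1 became 0 with 64 added and with no filter. With the replicate block the counts were 1, 1, 0, 4, 4 and 1, as without it, and the labels state no pairing by replicate number. With 1 array left out they ran from 0 to 1 for castrated and for female against intact males, from 2 (without yak 1) to 4 in yak, and from 0 to 1 for buffalo minus yak. The enzymes' signs turned only in differences that did not pass, and the cause was not tested. Quantile normalisation gave ACADVL 0.040 (castrated minus intact male) and 0.25 (buffalo minus cattle), HADHB 0.084 (buffalo minus cattle), and ACAA2 0.24 and CPT1B 0.034 (buffalo minus yak). Median centring gave ACADVL 0.0089 (castrated minus intact male) and -0.035 (buffalo minus yak). Array weights, whose estimation stopped before full convergence, gave HADHA -0.12 and CPT1B -0.086 (castrated minus intact male), ACADL -0.11, ACADVL -0.19 and HADHA -0.050 (female minus intact male), and HADHA 0.073 (female minus castrated male). With 1 array left out, castrated minus intact male ran from -0.31 to 0.087 for ACADL, -0.23 to 0.085 for ACADVL and -0.15 to 0.34 for CPT1B. Female minus intact male ran from -0.11 to 0.23 for ACADL, -0.19 to 0.12 for ACADVL, -0.010 to 0.39 for HADHA and -0.12 to 0.37 for CPT1B. Female minus castrated male ran from -0.26 to 0.13 for HADHA and -0.13 to 0.25 for CPT1B. Buffalo minus yak ran from -0.015 to 0.052 for ACADVL, -0.21 to 0.091 for ACAA2 and -0.10 to 0.0026 for CPT2. Quantile normalisation also took the ACADL call between buffalo and yak (adjusted p = 0.0568 in limma) and gave one for ACADM (0.33, adjusted p = 0.0321). Array weights called HADHA in buffalo (-0.46, adjusted p = 0.0495) and HADHB in yak (-0.35, adjusted p = 0.0141). Over all probe sets, array weights called 3533 instead of 211 for castrated and 5069 instead of 792 for female against intact males, 14 instead of 3 between females and castrated males, and 7021 instead of 4196 in yak. Fitting all 15 arrays called 718, 1911 and 5 in the cattle comparisons. No filter called 11929 of 24016 probe sets in buffalo, instead of 7400 of 14409. Alternatives for the other pathway genes were chosen after seeing the data.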
